A study of Mus musculus with 6 samples.

Results

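The 10 genes described here mark astrocytes or rise when astrocytes react to injury, and they were chosen by name: Gfap, Vim, Aqp4, Slc1a2, Slc1a3, Aldh1l1, S100b, Gja1, Lcn2 and Serpina3n. Each was found among the 54838 genes of the deposited count table, and the filter on low counts, which left 19087 genes to be tested, removed 0 of the 10. RNA was sequenced from the hippocampi of 3 wild-type females and of 3 females of the line FVB/NJ-Tg(Orai1)Ibd, all 7 months old, with 1 library per mouse. The transgene is a human ORAI1 coding sequence in the mouse Thy1.2 expression cassette, which is active in neurons, so astrocytes are not the cells that it targets. ORAI1 is the pore of a store-operated Ca2+ channel of the plasma membrane. Counts of Orai1 checked the labels, with 7.15 to 8.08 CPM (counts divided by the scaled library total and multiplied by 1000000) in wild-type and 313 to 330.9 CPM in transgenic mice. Libraries held 37414241 to 52497799 counts, and the labels give no litter, batch or day of extraction, so p-values measure the spread between these mice only.

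Astrocytes are the glial cells that clear glutamate and potassium from the space around synapses, supply neurons with metabolites and surround blood vessels with their endfeet. When tissue is injured, inflamed or exposed to seizures, they enlarge and make more intermediate filament protein, a state called reactive gliosis that is most often read from Gfap and Vim. Lcn2 and Serpina3n encode secreted proteins that rise in many models of reactive gliosis.

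None of the 10 genes differed between genotypes at an adjusted p under 0.05 (edgeR's quasi-likelihood test, Benjamini-Hochberg adjustment over 19087 genes), a threshold that 7.10% of all tested genes passed. In RNA of a whole hippocampus, fewer cells of a type and less RNA per cell cannot be told apart. At an unadjusted p under 0.05 the count was also 0, where 27.8% of all tested genes passed. DESeq2's Wald test and limma-voom called 0 of the 10 as well, beside 2230 and 1261 of the 19087 tested genes. With offsets for the GC content of transcripts, 0 of the 10 were called beside 2.50% of all tested genes, and Gja1 had an unadjusted p under 0.05 (log2 fold change 0.16, adjusted p = 0.136 from edgeR). The adjusted p ran from 0.456 to 0.897. In each of the 10 genes the values of the genotypes overlapped, whereas in 34.9% of tested genes they did not. What did differ was the mouse: Gfap, Vim, Serpina3n, S100b and Aqp4 were higher in wild-type mouse 3 and in transgenic mice 2 and 3 than in the other libraries of their genotype, by more than the difference between the genotype means. With smaller fold ranges, the same held for Slc1a2, Slc1a3 and Gja1.

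To show what the regulatory sequence of these genes looks like, the 250 bases before the RefSeq transcription start (build GRCm38.p6) were read for the 9 genes that have an entry. The windows of Gfap (chr11:102897201-102897450, minus strand), S100b (chr10:76253586-76253835, plus strand) and Serpina3n (chr12:104406458-104406707, plus strand) are given because these genes varied together between mice, and that of Slc1a3 (chr15:8710808-8711057, minus strand) because it varied little. The Gfap window lies inside the Ensembl span of the gene, in an intron of a non-coding Gfap transcript. Each is printed 5′ to 3′ on the strand of the gene, and capitals mark a match to the STAT palindrome TTCNNNGAA or to TATAAA.
Gfap: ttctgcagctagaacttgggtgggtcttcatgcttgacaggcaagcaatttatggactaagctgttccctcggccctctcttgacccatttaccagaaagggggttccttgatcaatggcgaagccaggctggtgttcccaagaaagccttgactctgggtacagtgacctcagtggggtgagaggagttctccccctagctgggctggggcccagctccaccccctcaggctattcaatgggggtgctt
S100b: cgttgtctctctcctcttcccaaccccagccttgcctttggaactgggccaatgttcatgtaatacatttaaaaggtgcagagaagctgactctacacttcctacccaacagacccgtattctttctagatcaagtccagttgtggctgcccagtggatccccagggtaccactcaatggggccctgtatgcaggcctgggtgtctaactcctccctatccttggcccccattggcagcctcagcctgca
Serpina3n: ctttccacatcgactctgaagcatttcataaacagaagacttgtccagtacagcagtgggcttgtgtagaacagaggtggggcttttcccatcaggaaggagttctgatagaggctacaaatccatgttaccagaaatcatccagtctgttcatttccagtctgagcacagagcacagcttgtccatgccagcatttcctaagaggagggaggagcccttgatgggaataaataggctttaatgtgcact
Slc1a3: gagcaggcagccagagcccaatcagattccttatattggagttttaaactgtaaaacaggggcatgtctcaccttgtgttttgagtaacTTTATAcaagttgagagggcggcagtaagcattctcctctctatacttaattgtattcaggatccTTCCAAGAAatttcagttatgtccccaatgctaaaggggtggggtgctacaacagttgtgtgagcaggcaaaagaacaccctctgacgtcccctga
Both strands were searched. Of the 9 windows only that of Slc1a3 held TTCNNNGAA, with TTCCAAGAA starting 96 bases before the start site, and 7.02% of the 32851 windows of all genes held this motif. TATAAA on either strand was present in Slc1a3 and Vim, against 12.4% of all windows. The full palindrome of nuclear factor I was found in 0 of the 9, against 0.0365% of all windows. These are matches of letters and do not show binding.

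**Figure D1:**
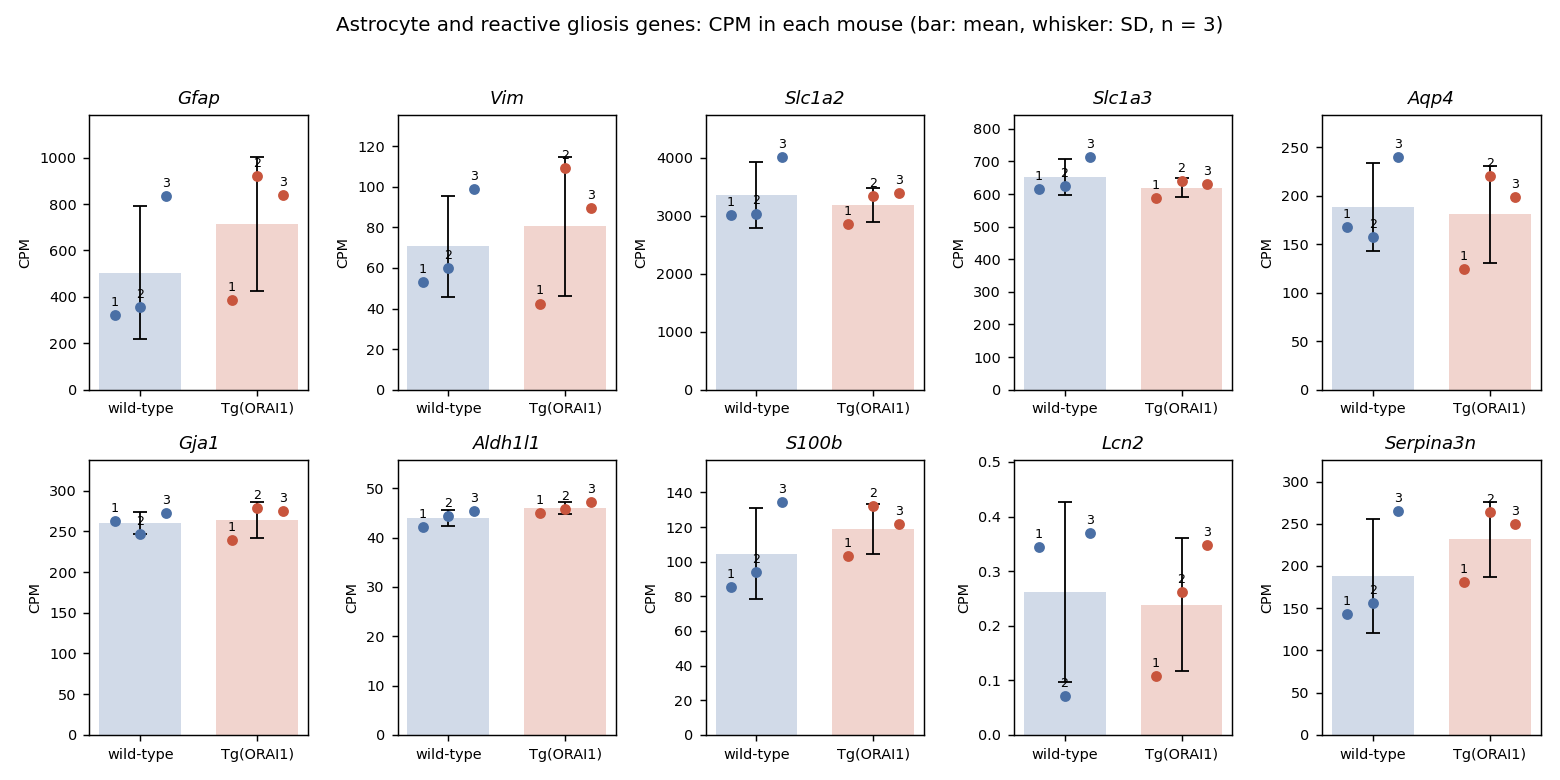
CPM of each gene in each mouse, on axes that start at 0. Points are single mice with their replicate number, bars are the mean of 3 mice and whiskers the SD. In Gfap, wild-type mouse 3 stands at 835 CPM beside the transgenic mice 2 and 3, and transgenic mouse 1 at 385 CPM beside the wild-type mice 1 and 2.

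The intermediate filament genes varied most among the abundant genes. Gfap (ENSMUSG00000020932, chromosome 11 of GRCm38 from 102887336 to 102900912, minus strand), which encodes glial fibrillary acidic protein, had 323, 355 and 835 CPM in wild-type mice 1, 2 and 3 and 385, 921 and 839 CPM in transgenic mice 1, 2 and 3. The highest and lowest mouse differed by 2.59-fold within the wild-type and by 2.39-fold within the transgenic group. Wild-type mouse 3 lay beside transgenic mice 2 and 3, transgenic mouse 1 lay beside wild-type mice 1 and 2, and no mouse fell between 385 and 835 CPM. The means were 504 ± 287 CPM (SD, n = 3) and 715 ± 289 CPM, a log2 fold change of 0.50 (standard error 0.43, 95% interval -0.50 to 1.51, adjusted p = 0.490 from edgeR). This interval includes no change and a rise of the size seen between mice of 1 genotype.

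Vim (ENSMUSG00000026728, chromosome 2 from 13573927 to 13582826, plus strand) encodes vimentin, a filament protein that reactive astrocytes share with endothelial, ependymal and meningeal cells. It had 53.1, 59.8 and 98.9 CPM in the wild-type mice and 42.5, 109 and 89.5 CPM in the transgenic mice. Transgenic mouse 1 was the lowest of all 6 and transgenic mouse 2 the highest, 2.57-fold apart. The log2 fold change between genotypes was 0.19 (standard error 0.35, 95% interval -0.64 to 1.02, adjusted p = 0.771 from edgeR).

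Both glial glutamate transporters, which remove glutamate after synaptic release, varied less between mice than Gfap and Vim. Slc1a2 (ENSMUSG00000005089, chromosome 2 from 102658659 to 102790784, plus strand) encodes GLT-1, the main transporter of the forebrain, and had 3010, 3038 and 4017 CPM in wild-type and 2850, 3332 and 3389 CPM in transgenic mice. Wild-type mouse 3 was the highest, and the other 5 mice lay between 2850 and 3389 CPM. Its log2 fold change was -0.07 (standard error 0.13, 95% interval -0.37 to 0.23, adjusted p = 0.755 from edgeR). Slc1a3 (ENSMUSG00000005360, chromosome 15 from 8634124 to 8710764, minus strand) encodes GLAST and had 615, 624 and 714 CPM in wild-type and 587, 641 and 632 CPM in transgenic mice, with a log2 fold change of -0.07 (standard error 0.072, 95% interval -0.24 to 0.10, adjusted p = 0.570 from edgeR). Within a library the FPKM (CPM on the unscaled total, per 1000 bases of exon) of Slc1a2 exceeded that of Slc1a3 by 3.18, 3.17 and 3.66-fold in the wild-type and by 3.16, 3.38 and 3.48-fold in the transgenic mice. The log2 ratio was 1.73 ± 0.12 (SD, n = 3) and 1.74 ± 0.073, a difference of 0.0046 (exact permutation test, 2-sided, p = 1, where 0.1 is the smallest p that 3 mice against 3 allow).

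The channels of the endfeet and of the astrocyte network behaved differently from each other. Aqp4 (ENSMUSG00000024411, chromosome 18 from 15389496 to 15410982, minus strand), the water channel of endfeet, had 168, 157 and 240 CPM in wild-type and 124, 220.2 and 198 CPM in transgenic mice. As for Gfap, the high mice were wild-type mouse 3 and transgenic mice 2 and 3, and the lowest and highest mouse differed by 1.94-fold. Its log2 fold change was -0.06 (standard error 0.23, 95% interval -0.60 to 0.48, adjusted p = 0.897 from edgeR). Gja1 (ENSMUSG00000050953, chromosome 10 from 56377330 to 56402513, plus strand), which encodes the gap junction protein connexin 43, had 263, 246 and 272 CPM in wild-type and 239, 278 and 275 CPM in transgenic mice. These 6 values lay within 1.16-fold, and the log2 fold change was 0.02 (standard error 0.071, 95% interval -0.14 to 0.19, adjusted p = 0.877 from edgeR).

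Aldh1l1 (ENSMUSG00000030088, chromosome 6 from 90486427 to 90600203, plus strand), a folate enzyme used as a general astrocyte marker, was the steadiest gene of the set, with 42.2, 44.4 and 45.4 CPM in wild-type and 44.9, 45.7 and 47.2 CPM in transgenic mice. Its log2 fold change was 0.06 (standard error 0.050, 95% interval -0.053 to 0.18, adjusted p = 0.456 from edgeR). S100b (ENSMUSG00000033208, chromosome 10 from 76253853 to 76261159, plus strand) encodes a Ca2+-binding protein of astrocytes that is also made by oligodendrocytes, and had 85.2, 94.0 and 135 CPM in wild-type and 103, 132 and 122 CPM in transgenic mice. The order of the mice was that of Gfap in the wild-type and in the transgenic group. The log2 fold change of S100b was 0.19 (standard error 0.17, 95% interval -0.21 to 0.58, adjusted p = 0.520 from edgeR). Dip2a, with up to 5705 counts, overlaps S100b on the opposite strand, and the counting of the authors kept the strand.

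The secreted reactive proteins stood at opposite ends of the range. Serpina3n (ENSMUSG00000021091, chromosome 12 from 104406729 to 104414329, plus strand), an inhibitor of serine proteases, had 143, 156 and 266 CPM in wild-type and 181, 264 and 249 CPM in transgenic mice. Transgenic mouse 1 exceeded wild-type mice 1 and 2, and wild-type mouse 3 was the highest of all 6. The log2 fold change was 0.30 (standard error 0.24, 95% interval -0.27 to 0.86, adjusted p = 0.469 from edgeR). Serpina3n lies in a cluster of near-identical paralogs that may exchange reads. Of 10 paralogs examined, Serpina3c, Serpina3f, Serpina3g, Serpina3h, Serpina3i, Serpina3k and Serpina3m had over 10 counts in any library, and the largest count was 215 for Serpina3h in transgenic mouse 2, where Serpina3n had 10090. Serpina3h had 87, 77 and 203 counts in wild-type and 102, 215 and 176 in transgenic mice, an order of mice close to that of Serpina3n. Of the 6 paralogs tested, 0 had an adjusted p under 0.05 or an unadjusted p under 0.05 (edgeR), beside 7.10% and 27.8% of all tested genes.

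Lcn2 (ENSMUSG00000026822, chromosome 2 from 32384633 to 32388252, minus strand) encodes lipocalin 2, a small protein that binds bacterial iron carriers and is nearly absent from resting brain. Its raw counts were 18, 3 and 14 in wild-type and 5, 10 and 13 in transgenic mice, or 0.0710 to 0.370 CPM. At this depth a change was hardly measurable, with a log2 fold change of -0.18 (standard error 0.61, 95% interval -1.60 to 1.24, adjusted p = 0.882 from edgeR). By wild-type FPKM, 2.10% of tested genes were lower than Lcn2.

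**Figure D2:**
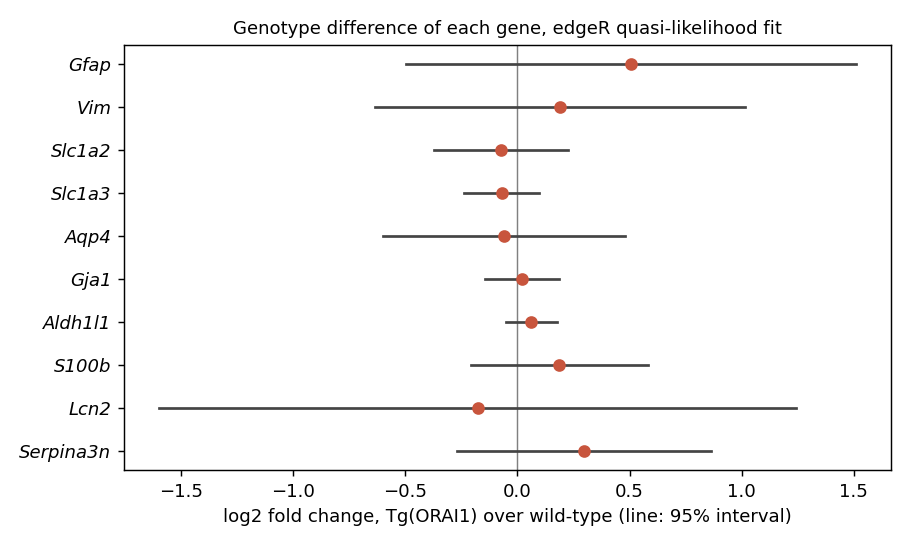
Log2 fold change of transgenic over wild-type for each gene (point) with its 95% interval (line) from edgeR's quasi-likelihood fit. All 10 intervals include 0, from the narrow one of Aldh1l1 (-0.053 to 0.18) to the wide one of Lcn2 (-1.60 to 1.24).

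Per length of transcript, the order of the levels in wild-type mice was Slc1a2 with 256 ± 44.5 FPKM (SD, n = 3), Gfap with 119.8 ± 68.6, Serpina3n with 91.4 ± 32.9, Slc1a3 with 76.4 ± 6.70, S100b with 70.6 ± 18.0, Aqp4 with 30.3 ± 7.36, Gja1 with 25.4 ± 1.31, Vim with 14.9 ± 5.28, Aldh1l1 with 9.76 ± 0.398 and Lcn2 with 0.0998 ± 0.0632. The ranges of Gfap and Serpina3n, Serpina3n and Slc1a3, Slc1a3 and S100b, and Aqp4 and Gja1 overlapped between mice, and the other neighbours did not. In the transgenic mice Slc1a2 again led with 243 ± 23.8 FPKM, and its range overlapped with that of Gfap at 169.6 ± 69.1 FPKM. S100b with 80.1 ± 10.2 FPKM stood above Slc1a3 with 72.5 ± 3.79 there, but these ranges overlapped too. The transgenic ranges of Vim and Aldh1l1 also overlapped, which they did not in the wild-type.

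The order of the mice was shared by the set, though not the size of the differences. Wild-type mouse 3 was the highest wild-type mouse in 10 of the 10 genes, beside 36.4% of all tested genes, and transgenic mouse 1 the lowest transgenic mouse in 10 of 10, beside 40.9%. Both orders together were present in 10 of 10 and in 21.5% of all tested genes. In 2 of the 10 the wild-type order rested on small gaps. Lcn2 had 0.344 and 0.370 CPM in wild-type mice 1 and 3, from 18 and 14 counts. Aldh1l1 had 44.4 and 45.4 CPM in wild-type mice 2 and 3. In 9 of the 10 genes, all but Lcn2, wild-type mouse 3 and transgenic mice 2 and 3 lay above the other 3 libraries, which held for 11.4% of all tested genes. These orders were picked after the values were seen and are a description. How far the genes moved differed: from lowest to highest mouse Gfap spanned 2.86-fold, Vim 2.57-fold, Aqp4 1.94-fold, Serpina3n 1.85-fold and S100b 1.58-fold, while Slc1a2 spanned 1.41-fold, Slc1a3 1.22-fold, Gja1 1.16-fold and Aldh1l1 1.12-fold. The FPKM of Gfap was 8.19, 8.55 and 19.7 times that of Aldh1l1 in the wild-type and 9.19, 21.6 and 19.0 times in the transgenic mice. Between genotypes this log2 ratio was 3.48 ± 0.71 (SD, n = 3) and 3.96 ± 0.67, a difference of 0.48 (exact permutation test, 2-sided, p = 0.3). With 1 mouse left out it was 0.90 without wild-type mouse 3, 0.86 without transgenic mouse 1, 0.26 without wild-type mouse 1, 0.29 without wild-type mouse 2 and 0.25 without transgenic mouse 2. The 3 low libraries were also the 3 largest, with 52497799, 42154842 and 47027279 counts in wild-type mice 1 and 2 and transgenic mouse 1, against 37710188, 38094114 and 37414241 in wild-type mouse 3 and transgenic mice 2 and 3, and the part of this in the levels was not tested.

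**Figure D3:**
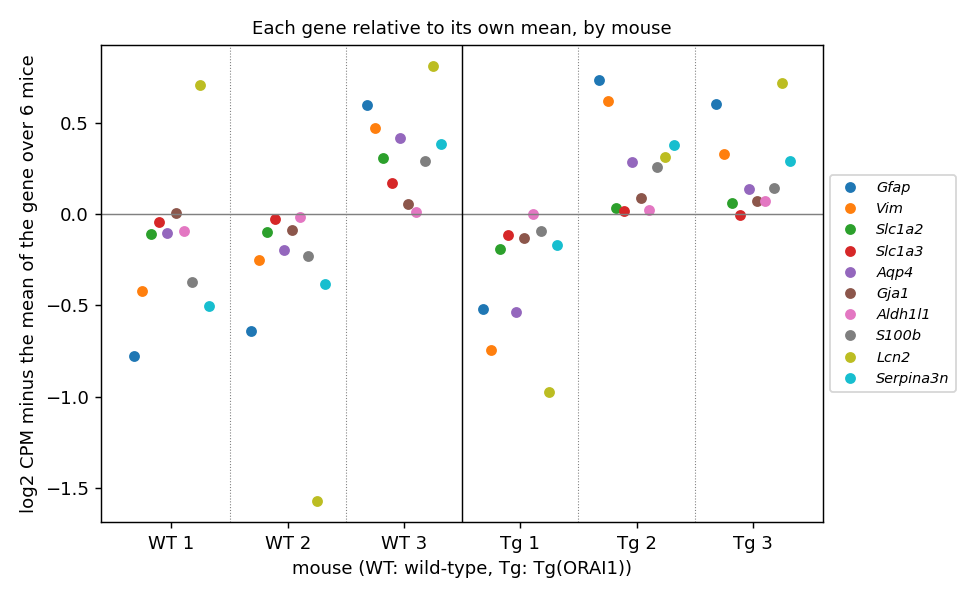
Log2 CPM of each gene minus the mean of that gene over the 6 mice, with 1 colour per gene and the mice side by side. Nearly all points of wild-type mouse 3 and transgenic mice 2 and 3 lie above 0 and nearly all of the other mice below it, with Gfap and Vim far from 0, Aldh1l1 and Gja1 near it, and Lcn2, with 3 to 18 counts, scattered.

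Leaving out 1 mouse moved the fold changes of the variable genes but gave no call. Without wild-type mouse 3, Gfap reached a log2 fold change of 1.08 (adjusted p = 0.106 from edgeR), Serpina3n 0.63 (adjusted p = 0.0645 from edgeR) and S100b 0.41 (adjusted p = 0.0691 from edgeR). These 3 were the members with an unadjusted p under 0.05 in that fit, where the share of all genes was not computed. With all 6 mice, 27.8% of all tested genes passed this threshold. Without wild-type mouse 1 the values were lower, with 0.15 for Serpina3n (adjusted p = 0.790 from edgeR) and 0.071 for S100b (adjusted p = 0.854 from edgeR). Without transgenic mouse 1, Gfap was at 0.81 (adjusted p = 0.215 from edgeR), and without wild-type mouse 1, wild-type mouse 2 or transgenic mouse 2 it was at 0.28, 0.32 and 0.30. Over the 6 fits that leave out 1 mouse the count of members called was 0 in each. Calls over all genes in these fits ran from 77 of 19289 without wild-type mouse 1 to 1149 of 19382 without transgenic mouse 1. They numbered 94, 192 and 108 without wild-type mouse 2, transgenic mouse 2 and transgenic mouse 3, and 1031 without wild-type mouse 3.

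Other astrocyte genes were taken from a list of 30, all of which were tested. Of these 0 rose and 3 fell at an adjusted p under 0.05 (edgeR), where 591 of all tested genes rose and 764 fell, and their median log2 fold change was 0.026 beside -0.010 over all tested genes. Those that fell were Slc39a12, a zinc transporter, from 57.2 ± 1.84 to 42.5 ± 1.76 CPM (log2 fold change -0.43, standard error 0.051, adjusted p = 0.00982 from edgeR), Slc4a4, a sodium bicarbonate cotransporter, from 213 ± 13.1 to 175 ± 6.22 CPM (log2 fold change -0.28, adjusted p = 0.0349 from edgeR), and Slco1c1, a thyroid hormone carrier that choroid plexus and brain endothelium also make, from 83.2 ± 5.18 to 67.6 ± 1.97 CPM (log2 fold change -0.30, adjusted p = 0.0301 from edgeR). In these 3 genes each transgenic mouse was below each wild-type mouse. Over the list the genotypes did not overlap in 4 of 30 genes, beside 34.9% of all tested genes. DESeq2's Wald test called these 3 and, as the only one higher, Ntsr2, a neurotensin receptor of astrocytes, with 132, 141 and 139 CPM in wild-type and 161, 153 and 153 CPM in transgenic mice (log2 fold change 0.18, adjusted p = 0.0562 from edgeR). With GC offsets Slc4a4 and Slco1c1 were no longer called, and with length offsets Slc4a4 was not. The list had 0 calls without wild-type mouse 1, wild-type mouse 2 or transgenic mouse 3, and 1 without transgenic mouse 2. Calls over all genes numbered 77, 94, 108 and 192 in these fits, against 1355 with all mice. The summed level of 13 choroid plexus genes moved the same way, from 473 to 618 CPM in wild-type and from 77.9 to 106 CPM in transgenic mice, with all 13 lower at an adjusted p under 0.05 (edgeR) and none at 0 in any library, and its part in the 3 genes was not tested. Tmem72, Slc4a5 and Kcne2 fell most among them, with log2 fold changes of -4.35, -3.69 and -3.36. Abundant genes of the list did not pass the threshold: Sparcl1, Apoe and Cst3 had log2 fold changes of 0.07, 0.15 and 0.32. Cst3, which microglia also express strongly, had 953, 1047 and 1514 CPM in wild-type and 1147, 1548 and 1686 CPM in transgenic mice. The order with wild-type mouse 3 highest and transgenic mouse 1 lowest was present in 11 of the 30.

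Genes that published panels list for reactive astrocytes were examined next, 35 in all, of which 33 passed the filter. At an adjusted p under 0.05 (edgeR) 0 rose and 0 fell, beside 7.10% of all tested genes called in either direction. At an unadjusted p under 0.05 the count was 3 of 33, beside 27.8% of all tested genes, all lower in transgenic mice (Steap4, Synm and Ptgs2, with log2 fold changes of -1.49, -0.24 and -0.44), and DESeq2's Wald test called 1, Ptgs2, and limma-voom 0. Among 11 genes that many insults induce the median log2 fold change was 0.22, among 12 genes of the neuroinflammatory panel 0.023, and among the 10 tested genes of the ischaemia panel 0.0013. The most abundant were H2-D1, a class I MHC gene, Synm, which encodes the filament protein synemin, Fkbp5, a glucocorticoid target, and Cp, the copper oxidase ceruloplasmin, with log2 fold changes of 0.022, -0.24, 0.024 and -0.056. Wild-type mouse 3 was highest and transgenic mouse 1 lowest of its genotype in 27 of the 33.

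Genes of other cell types were read in the same libraries. All 12 microglia genes had the order of mice described above, and their summed level was 319.5, 343 and 460.3 CPM in wild-type and 313, 501 and 483 CPM in transgenic mice, with the same 3 libraries high as for Gfap. Of 8 genes of meningeal fibroblasts 7 had it, with a summed level of 209, 189.9 and 283 CPM in wild-type and 123, 369 and 231 CPM in transgenic mice, as did 7 of 10 endothelial, 4 of 8 mural and 6 of 10 oligodendrocyte genes. By contrast it was present in 1 of 10 neuronal, 1 of 10 ependymal, 0 of 8 oligodendrocyte precursor, 0 of 13 choroid plexus and 1 of 8 genes of hippocampal identity. Summed neuronal markers lay between 10015 and 10983 CPM and those of hippocampal identity between 915 and 1026 CPM, and no marker of any of these lists was at 0 in any library. At an adjusted p under 0.05 (edgeR) the calls in these lists, apart from the choroid plexus, were Gad2 (log2 fold change -0.52), Slc17a7 (0.26) and Cldn5 (0.66). There were 0 among the microglia, meningeal, mural, ependymal, oligodendrocyte, precursor and hippocampal genes, beside 7.10% of all tested genes. The part of the other cell types in the levels of Gfap, Vim and Serpina3n was not tested.

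**Figure D4:**
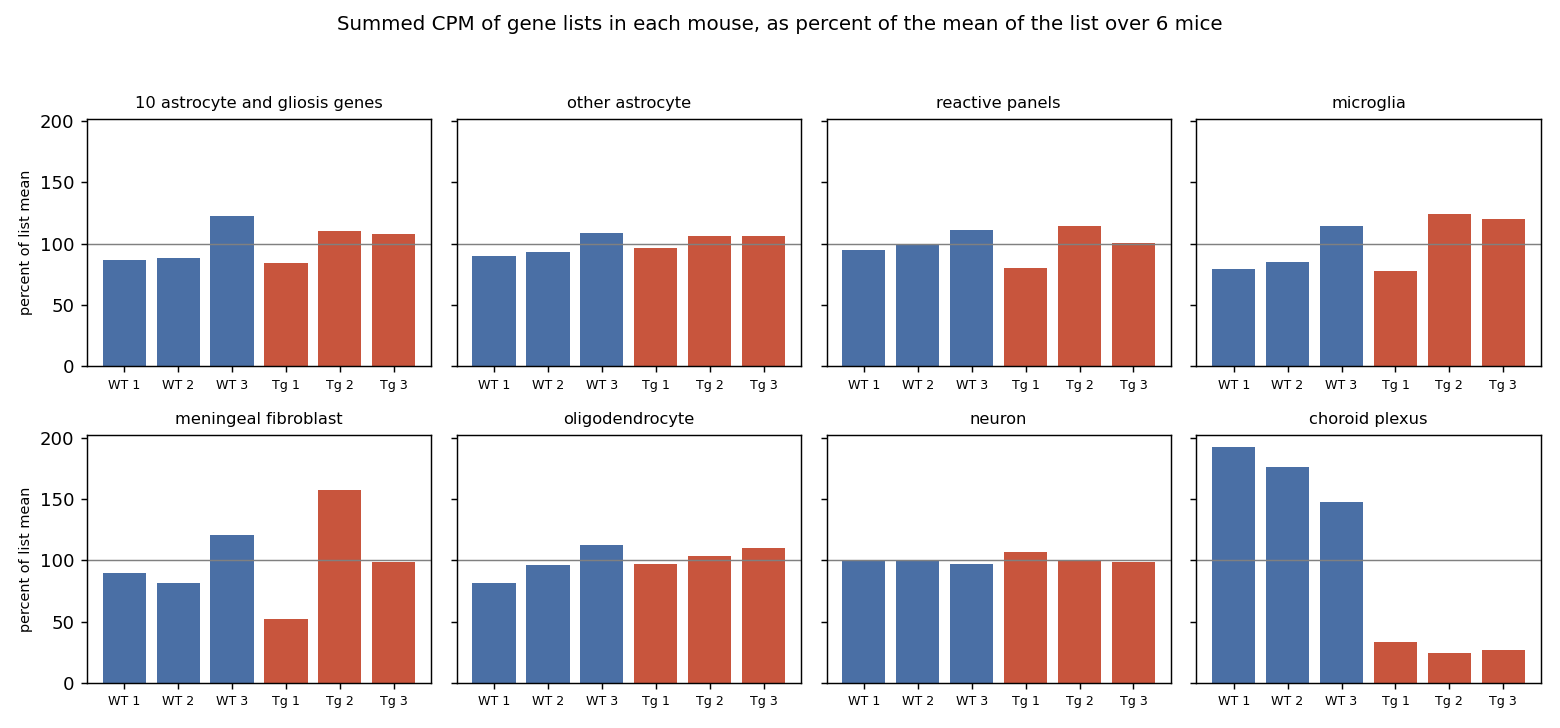
Summed CPM of 8 gene lists in each mouse as percent of the mean of the list over the 6 mice, with wild-type in blue and transgenic in red. The 10 genes described here run from 84.3% to 122% and microglia genes from 77.7% to 124% with the same 3 mice high, neuronal genes stay between 97.1% and 106%, and choroid plexus genes separate the genotypes, with 147% to 192% in wild-type and 24.2% to 33.0% in transgenic mice. Slc1a2 is the largest part of the sum of the 10 genes, with 3010 of 4702 CPM in wild-type mouse 1 and 4017 of 6624 CPM in wild-type mouse 3.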

How the data were processed

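Hippocampal RNA of 3 wild-type and 3 transgenic females was sequenced in pairs of reads. The authors trimmed reads with Trimmomatic, aligned them to mm10 with STAR (version not given in the sources used here) and deposited whole-number counts of fragments per gene from featureCounts 1.5.0-p1, not normalized, with strand kept, mapping quality of at least 3 and primary alignments on Ensembl 95. All 6 count columns were used, and genes were named by GENCODE M21, in which 54809 of 54838 identifiers were found. The deposited gene lengths were used for FPKM.

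From the counts, genes were kept by filterByExpr with a minimum count of 10, scaled by TMM (factors 0.992 to 1.00) and tested with edgeR's quasi-likelihood test (edgeR 4.0.16, R 4.3.3), without covariates, at an adjusted p of 0.05. The study's own test, NOISeq, was not run. Intervals are log2 fold change ± the t quantile times the standard error. Alternatives used DESeq2 1.42.0, limma 3.58.1, other scalings and filters, each mouse left out, the replicate number as a block, and loess offsets (span 0.5) for transcript GC content and gene length. Fits were tested on simulated data. Totals ran from 37414241 to 52497799 counts. Besides the 10 members, the text names, by a rule, genes of each list with an adjusted p under 0.05 (up to 8, or 3 for another cell type), the 4 most abundant of the astrocyte and reactive lists, Serpina3 paralogs with over 10 counts, and Orai1. A gene that the rule names is not reported here. Steap4, Ptgs2, Ntsr2 and Slc7a10 were named after their values were seen. The members and lists were chosen with earlier results of these data known. Motifs were searched with Python 3.11.15.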

Additional observations from a re-analysis of the deposited data

How the results depend on the processing

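Of the 10 members 0 were called in each of the 17 alternatives, and 151 of 169 member values kept the sign of the difference. Signs turned, without a call, for Slc1a2 (0.015 with GC offsets, 0.025 with GC offsets and the replicate block, 0.063 with length offsets), Slc1a3 (0.014, 0.017 and 0.018) and Aqp4 (0.081 with GC offsets, 0.075 with the block added). With 1 mouse left out, log2 fold changes ran from -0.078 to 0.51 for Vim, -0.13 to 0.082 for Slc1a2, -0.096 to 0.0069 for Slc1a3, -0.20 to 0.16 for Aqp4, -0.0021 to 0.089 for Gja1, -0.59 to 0.21 for Lcn2, and -0.031 to 0.072 for the Slc1a2 to Slc1a3 ratio. Aldh1l1 had 0.0077 with GC offsets and 0.0073 with the block added. Lcn2 was not tested under a minimum of 10 counts in every library.

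Calls over all genes numbered 1355, and 2230 with DESeq2's Wald test, 738 with the replicate block, 477 with GC offsets, 487 with both, and 77 to 1149 with 1 mouse left out. Without wild-type mouse 3 or transgenic mouse 1 they numbered 1031 and 1149, and without wild-type mouse 1, wild-type mouse 2, transgenic mouse 2 or transgenic mouse 3 they numbered 77, 94, 192 and 108. Other astrocyte genes called numbered 3, against 1 with GC offsets (Slc39a12), 1 with GC offsets and the replicate block (Slc7a10, none of the 3), and 0 to 4 with 1 mouse left out. The replicate block alone called Slc39a12 and Slco1c1 but not Slc4a4. They were 0 without wild-type mouse 1, wild-type mouse 2 or transgenic mouse 3, and 1 without transgenic mouse 2. Of the reactive genes 1, Ptgs2, was called by DESeq2's Wald test, without a filter and with the replicate block. The cause was not tested. Deviations of same-numbered mice correlated between -0.357 and 0.399 across 11191 genes, and not every mouse correlated best with its own number, so the mice share only a number. With the block, Gfap had a log2 fold change of 0.54 (adjusted p = 0.204 from edgeR). Among the members, Lcn2 had the lowest counts, 3 to 18, and the part of depth in the other levels was not tested.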

Other observations

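Wild-type mouse 3 and transgenic mice 2 and 3 lay above the other libraries in 21 of the 33 tested reactive genes, beside 11.4% of all tested genes. The receptor genes Osmr and Cd44 are given as examples that were chosen after their values were seen. Osmr, the receptor of oncostatin M, had 6.13, 5.90 and 14.1 CPM in wild-type and 6.15, 14.5 and 14.5 CPM in the transgenic group, which edgeR fitted as a log2 difference of 0.43 with an adjusted p of 0.557. Cd44, a receptor of hyaluronan, had 6.22, 7.34 and 14.2 CPM in wild-type and 4.89, 14.5 and 13.8 CPM in the transgenic group, and its log2 difference of 0.26 had an adjusted p of 0.746 in edgeR.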
